A study of Mus musculus with 20 samples.

Results

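The hippocampus and the cortex of the same Ube3aOE mice were compared to describe which regional programs stand in brains with extra Ube3a. The comparison used 10 of the 20 libraries of the series, chosen by the genotype, tissue and mouse number in the labels. These are the hippocampus and cortex libraries of 5 Ube3aOE mice (numbers 6 to 10), so each hippocampus was set against the cortex of its own animal. The other 10 libraries come from hippocampus and cortex of 5 WT mice (numbers 1 to 5) and were used only to place the Ube3aOE values. All mice were C57Bl/6J pups at postnatal day 7. Ube3aOE mice, from a single founder line (line E), carry additional mouse Ube3a on a BAC transgene that includes neighbouring genomic sequence, and keep their own alleles, while WT mice carry no transgene. The transgene thus uses the Ube3a promoter rather than that of a single cell type, and the mice come from 1 line, while bulk counts do not show which cells use it. The 5 Ube3aOE mice were 3 males and 2 females, each in both regions, and the Y-linked counts matched the labelled sex in 10 of 10 libraries. A library held 15650861 to 16698215 reads counted on genes. Values are CPM, that is reads per 1000000 reads counted on genes, after TMM scaling. Differences are log2 hippocampus minus cortex with their standard error (SE, n = 5 pairs throughout), so a positive value is higher in hippocampus. P values come from edgeR's quasi-likelihood test with the mouse as a block and were adjusted over all genes tested by the Benjamini-Hochberg method; a gene was called at an adjusted P under 0.05.

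UBE3A is an E3 ubiquitin ligase that marks proteins for breakdown, and in neurons it is made from the maternal allele. The hippocampus is built from the dentate gyrus, whose granule cells are still being born after birth, and from pyramidal fields CA1 to CA3. The neocortex stacks its projection neurons in upper layers, which connect cortical areas, and deep layers, which project out of the cortex. Each of these cell classes is set up by its own transcription factors, receptors and guidance molecules, and these are the regional programs followed here.

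Ube3a itself (ENSMUSG00000025326, chromosome 7 from 59228750 to 59311536 of GRCm38) was at 142, 147, 183, 143 and 195 CPM in the hippocampus of mice 6 to 10 and at 136, 129.8, 181, 129.6 and 182 CPM in their cortex. Both regions overlapped, with mice 8 and 10 highest in each. The WT libraries lay below every Ube3aOE library, at 69.5, 76.8, 57.1, 60.2 and 59.9 CPM in the hippocampus of mice 1 to 5 and 58.6, 54.4, 70.0, 60.2 and 62.1 CPM in the cortex. The regional difference of Ube3a in Ube3aOE mice was 0.11 ± 0.04 (95% interval 0.01 to 0.21) and did not pass the test (adjusted P = 0.0871). Reads of the transgene and of the endogenous gene are counted together, and how the counting used strand, which bears on reads of the overlapping antisense transcript, is not given in the sources used here.

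Several libraries stood apart by markers of neighbouring regions. Some hippocampal RNA markers were higher in the cortex of mice 8 and 9 than in the other cortices. Fibcd1, a CA1 marker, was at 6.29, 5.17, 54.7, 44.1 and 9.18 CPM in the cortex of mice 6 to 10. Crym, which is also on the deep-layer list, was at 81.7, 70.1, 396, 354 and 90.5 CPM. Prox1, Neurod1, Zbtb20, Wfs1 and Nrp2, whose values are given below, were also highest in these cortices. Not every hippocampal gene was, and Emx2 was lowest there. The dentate list summed to 460, 520, 519, 496 and 458 CPM in the cortex of mice 6 to 10. The pyramidal list summed to 1320, 1474, 1113, 1181 and 1287 CPM. In hippocampus that list summed to 903 to 1140 CPM, and its member Mpped1 was higher in cortex. Its sum therefore does not follow hippocampal genes alone. In the hippocampus of mouse 9, 11 striatal markers summed to 983 CPM against 160 to 216 CPM in the hippocampus of the other 4 mice. Summed over 10 thalamic and habenular markers, the hippocampus of mouse 10 reached 1154 CPM and that of mouse 7 reached 560 CPM, against 145 to 206 CPM in the other 3. WT was not free of this, as the hippocampus of WT mouse 4 held 484 CPM against 136 to 143 CPM in the other WT hippocampi. Choroid plexus markers summed to 1978 CPM in the hippocampus of mouse 7 and 359 CPM in that of mouse 9, against 12.2 to 26.7 CPM in the other Ube3aOE hippocampi. The hippocampus of mouse 6 was at the low end of the striatal and thalamic sums. Their part in each regional difference was not tested; the counts of each list are also given without mice 8 and 9 and without mice 7 and 10, both chosen after seeing the data. In bulk tissue, fewer cells of a type and less RNA per cell cannot be told apart.

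**Figure D1:**
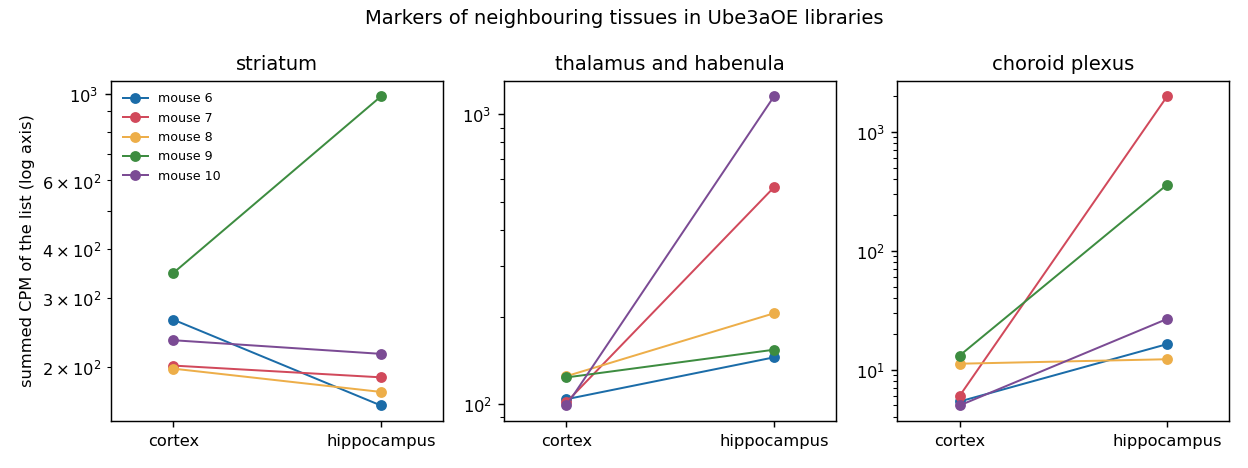
Summed CPM (log axis) of the striatal, thalamic and habenular, and choroid plexus marker lists in the cortex and hippocampus library of each Ube3aOE mouse; a line joins the libraries of 1 mouse. The hippocampus of mouse 9 stands highest for striatum (983 CPM), that of mouse 10 for thalamus and habenula (1154 CPM) and that of mouse 7 for choroid plexus (1978 CPM).

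Of 15147 genes tested, 4914 (32.4%) differed between the regions of Ube3aOE mice, 2518 higher in hippocampus (16.6%) and 2396 higher in cortex (15.8%). Past a difference of 1, that is 2-fold, 557 genes (3.68%) were higher in hippocampus and 262 (1.73%) higher in cortex. The CPM of the 5 hippocampi lay wholly above those of the 5 cortices for 1520 genes (10.0%) and wholly below for 1329 (8.77%). The median difference over all genes was 0.01. The spread left after region and mouse were fitted was 12.1% (biological coefficient of variation). The number called was 4452 without mice 8 and 9 and 1069 without mice 7 and 10, each with 3 pairs left, and 2793 without mouse 7 alone.

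The labelled regions carried their markers. Prox1 (ENSMUSG00000010175, chromosome 1 from 190118035 to 190170714), the homeobox factor that sets granule cell identity, was at 159, 135, 134, 75.1 and 184 CPM in the hippocampus of mice 6 to 10 and at 14.3, 11, 25.1, 23.6 and 12.7 CPM in their cortex. Even the lowest hippocampus, that of mouse 9, stood above every cortex. The difference was 3.00 ± 0.36 (adjusted P = 0.00331), a 7.97-fold excess. Zbtb20 (ENSMUSG00000022708, chromosome 16 from 42875881 to 43642602), a zinc finger repressor needed for the CA1 field, was at 106, 109, 201, 91.3 and 93.9 CPM against 19, 29.1, 48.7, 52 and 38.3 CPM. The hippocampus of mouse 8 was the highest by far and the cortices of mice 8 and 9 the highest of theirs, without overlap of the regions. Its difference was 1.71 ± 0.25 (adjusted P = 0.0056). Grik4 (ENSMUSG00000032017, chromosome 9 from 42518135 to 42944493), a kainate receptor subunit of CA3 synapses, was at 72.9, 58.9, 68.9, 54.5 and 59.9 CPM against 18.4, 22.4, 23.2, 24.8 and 18.8 CPM. Its values were tight in both regions, and the difference of 1.56 ± 0.12 had an adjusted P of 0.000722.

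The cortical markers went the other way. Rorb (ENSMUSG00000036192, chromosome 19 from 18930605 to 19111196), the orphan receptor of layer 4, was at 6.73, 17.4, 10.3, 13.06 and 19.1 CPM in the hippocampus of mice 6 to 10 and at 67.5, 71.3, 32, 49.1 and 76.3 CPM in their cortex. The cortices of mice 8 and 9 were the lowest yet still above every hippocampus, and the difference was -2.15 ± 0.24 (adjusted P = 0.00259). Mef2c (ENSMUSG00000005583, chromosome 13 from 83504034 to 83667080), an activity-dependent transcription factor, was at 113, 139.9, 145, 335 and 168 CPM against 1761, 1836, 1173, 1205 and 1888 CPM. The hippocampus of mouse 9 was the highest of its group and the cortices of mice 8 and 9 the lowest of theirs. The difference was -3.21 ± 0.33 (adjusted P = 0.00225), a 9.24-fold excess in cortex. The plot of single genes by mouse shows these values as joined pairs.

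**Figure D2:**
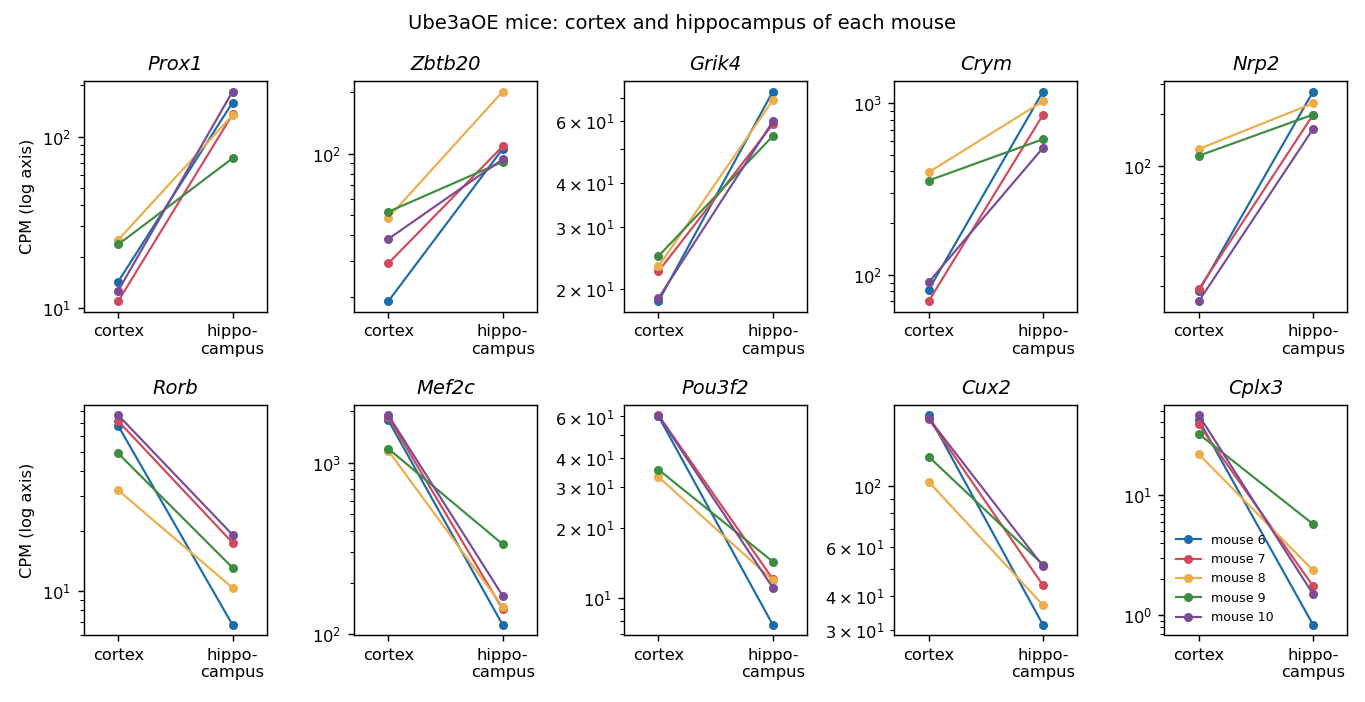
CPM (log axis) of 5 genes higher in hippocampus (upper row) and 5 higher in cortex (lower row) in the cortex and hippocampus of each Ube3aOE mouse; a line joins the libraries of 1 mouse. All lines of a row slope the same way, and those of mice 8 and 9 start nearer to the hippocampal level: Nrp2 is at 126 and 115 CPM in their cortex against 16.3 to 19.1 CPM in the others.

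The promoter windows of a hippocampal and a cortical marker are shown because both genes are region markers and encode transcription factors. Each window holds 250 bases before to 50 bases after a transcript start (RefSeq, GRCm38.p6) and is written 5′ to 3′ on the strand of the gene. Capitals mark any match, on either strand, to 3 motifs of factors that differ between the regions here: CTANNNNTAG (bound by MEF2 factors), CAGATG (an E-box bound by NEUROD factors) and AGGTCA (the half-site of RORB and other nuclear receptors). The windows lie at chr1:190170778-190171077 on the minus strand for Prox1 and at chr13:83503784-83504083 on the plus strand for Mef2c.
Prox1: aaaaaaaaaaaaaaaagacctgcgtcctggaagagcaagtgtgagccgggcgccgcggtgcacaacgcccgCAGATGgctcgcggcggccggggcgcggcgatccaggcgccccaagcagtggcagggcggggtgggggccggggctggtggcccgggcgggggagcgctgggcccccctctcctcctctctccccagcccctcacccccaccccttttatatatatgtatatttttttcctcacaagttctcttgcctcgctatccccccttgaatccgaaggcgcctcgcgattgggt
Mef2c: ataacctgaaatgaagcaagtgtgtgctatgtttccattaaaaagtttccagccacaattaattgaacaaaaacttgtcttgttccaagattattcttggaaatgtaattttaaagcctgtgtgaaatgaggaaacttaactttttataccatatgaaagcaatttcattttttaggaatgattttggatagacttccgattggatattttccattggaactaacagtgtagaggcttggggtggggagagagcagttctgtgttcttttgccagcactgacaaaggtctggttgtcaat
The Prox1 window held the E-box once, 179 to 174 bases before the start, and the Mef2c window held none of the 3 motifs. Among 11424 tested genes with such a window, 11.6% held the E-box, 11.6% the nuclear receptor half-site and 2.97% the MEF2 motif. Such a match is a description of these letters only.

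The dentate granule lineage was mostly higher in hippocampus. Of its 16 genes, 11 were higher in hippocampus, 1 was higher in cortex and 4 were not called, with a median difference of 0.98. Thus 75% were called beside 32.4% over all genes. Eomes (Tbr2), the factor of the intermediate progenitors that feed the granule layer, was at 23.7, 18.6, 16.3, 6.56 and 11 CPM in the hippocampus of mice 6 to 10 and at 0.699, 0.646, 0.895, 0.549 and 0.0633 CPM in their cortex. The hippocampi of mice 9 and 10 were lowest but far above all cortices, and the difference was 4.70 ± 0.30 (adjusted P = 0.000656). Neurod1, which drives granule neurons out of the cell cycle, was at 83.1, 58.9, 69.6, 34.2 and 43.1 CPM against 12.9, 16.7, 26.7, 21.1 and 13.7 CPM. The regions did not overlap, with mouse 9 again lowest in hippocampus and mouse 8 highest in cortex (difference 1.65 ± 0.27, adjusted P = 0.00825). Igfbpl1, found in immature neurons, and C1ql2, a secreted synaptic organizer of mossy fibers, differed by 3.28 ± 0.37 and 3.86 ± 0.54 (adjusted P = 0.00279 and 0.00389), and Dsp, a desmosomal protein of mature granule cells, by 2.47 ± 0.37 (adjusted P = 0.00351). Calb1, the calcium buffer of granule and other neurons, overlapped between the regions (44.9 to 99.5 CPM against 21.1 to 60.0 CPM) and differed by 0.77 ± 0.19 (adjusted P = 0.0247). The exception was Npnt, an extracellular matrix protein, which was higher in cortex in all mice (-0.65 ± 0.10, adjusted P = 0.00387). Neurod2 and Sox11, whose use is not limited to granule cells, were not called (0.22 ± 0.17 and 0.17 ± 0.08). The list had 10 genes higher in hippocampus without mice 8 and 9, and 4 without mice 7 and 10. With 1 mouse left out at a time, the call was lost for Calb1 without mouse 7 or 9 (adjusted P up to 0.0749). In fits of all 5 pairs, no call was made for Calb1 without the block or without the count filter.

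Genes of the pyramidal fields followed with a median difference of 0.66, with 7 of 16 higher in hippocampus, 1 higher in cortex and 8 not called. In all, 50% were called beside 32.4% over all genes. Fibcd1, an endocytic receptor of CA1 neurons, was at 109, 81.6, 122, 83.7 and 92.6 CPM in the hippocampus of mice 6 to 10, against the cortical values given above. The cortices of mice 8 and 9 came nearest to the hippocampal level, and the difference was 2.54 ± 0.62 (adjusted P = 0.03). Spink8, a protease inhibitor of CA1, was low at 4.71, 2.54, 2.9, 1.93 and 1.8 CPM and lower still in cortex, at 0, 0, 0.597, 0.671 and 0.127 CPM (difference 3.29 ± 0.72, adjusted P = 0.0158). Wfs1, an endoplasmic reticulum protein of dorsal CA1, had overlapping values (61 to 105 CPM against 23.7 to 73.4 CPM) and its cortices were at 31.4, 23.7, 73.4, 63.8 and 35.2 CPM in the order of mice 6 to 10; it was still called (0.92 ± 0.27, adjusted P = 0.0451). Cacng5 and Amigo2, a receptor auxiliary subunit and an adhesion protein of CA2 and CA3, differed by 0.91 ± 0.18 and 0.61 ± 0.13 (adjusted P = 0.011 and 0.0117). Mpped1, a phosphodiesterase-like protein, was higher in cortex, at 271, 258, 329, 305 and 164 CPM in hippocampus against 868, 1014, 617, 678 and 849 CPM (-1.61 ± 0.23, adjusted P = 0.00506). Of the 16 genes, 9 were higher in hippocampus without mice 8 and 9 and 2 without mice 7 and 10. When single mice were left out, calls were lost for Fibcd1 without mouse 6, 7 or 10 (adjusted P up to 0.0882) and Wfs1 without mouse 6, 7, 9 or 10 (adjusted P up to 0.132). With 5 pairs and another setting, the call was lost for Fibcd1 without the count filter and Wfs1 without the block or without the count filter.

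Field patterning genes of the medial wall had a median difference of 0.63 over 12 of 15 listed genes. Of these, 5 were higher in hippocampus, 1 higher in cortex and 6 not called (50% called beside 32.4% over all genes). Lmx1a, Wnt3a and Wnt8b, which mark or act in the cortical hem, were too low to test, at up to 1.99 CPM. Emx2, a homeobox factor that the hippocampal primordium needs, was at 33.8, 26.2, 25.1, 14.9 and 14.9 CPM in the hippocampus of mice 6 to 10 and at 7.5, 8.85, 6.27, 6.53 and 8.36 CPM in their cortex. All hippocampi were above all cortices (1.57 ± 0.20, adjusted P = 0.00304). Wnt5a, a secreted ligand, was higher in hippocampus (0.89 ± 0.22, adjusted P = 0.0223), and Wnt2b, another ligand, higher in cortex (-1.05 ± 0.24, adjusted P = 0.0135). Lhx9, a LIM homeobox factor used in the medial pallium and in the thalamus and habenula, was at 27.8, 64.8, 33.9, 19.4 and 121 CPM against 0.254, 0.259, 5.97, 4.03 and 0.0633 CPM. It was highest in the hippocampi of mice 10 and 7, the same libraries that carried the most thalamic markers, and differed by 4.51 ± 1.01 (adjusted P = 0.023). Lef1, the nuclear partner of Wnt signalling, was likewise highest in these hippocampi (8.64, 35.1, 9.46, 2.83 and 48.7 CPM) and was not called (1.55 ± 0.74, adjusted P = 0.161). The list had 6 genes higher in hippocampus without mice 8 and 9, and 1 without mice 7 and 10. The call did not hold with 4 pairs for Wnt5a without mouse 7, 8 or 10 (adjusted P up to 0.0686), Wnt2b without mouse 7 (adjusted P = 0.0555) and Lhx9 without mouse 6 or 7 (adjusted P up to 0.0708). With all mice kept, the call was also lost for Wnt5a and Lhx9 without the count filter.

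The upper-layer program stood in the cortex of every Ube3aOE mouse. Of 15 genes, 11 were higher in cortex and 0 higher in hippocampus, and the median difference was -1.03. Thus 73.3% were called beside 32.4% over all genes. Pou3f2 (Brn2), a POU factor of callosal neurons, was at 7.69, 12.1, 11.9, 14.3 and 11.1 CPM in the hippocampus of mice 6 to 10 and at 60.1, 60.8, 33.1, 35.5 and 60.4 CPM in their cortex. All cortices were above all hippocampi, with those of mice 8 and 9 the lowest (-2.09 ± 0.26, adjusted P = 0.00357). Cux2, a homeobox factor of layers 2 to 4, was at 31.3, 43.6, 36.9, 51.8 and 51.2 CPM against 181, 176, 104, 128 and 177 CPM. The same cortices were the lowest here too (-1.81 ± 0.18, adjusted P = 0.00182). Cux1, its relative, differed by -1.10 ± 0.16, Rasgrf2, a guanine exchange factor, by -0.85 ± 0.13, and Lmo4, a LIM adaptor, by -0.69 ± 0.08, all called without overlap of the regions. Unc5d, a netrin receptor, was higher in cortex by -1.03 ± 0.18 although the hippocampus of mouse 9 overlapped the cortices. Among the 4 genes not called, Pou3f3, a further POU factor, differed by -0.31 ± 0.14 (adjusted P = 0.126). Kitl, also not called, the ligand of the Kit receptor, ran from 25.9 to 267 CPM in hippocampus, highest in mice 10 and 7, and from 55.6 to 89.2 CPM in cortex. It was called higher in cortex without mice 7 and 10, by -0.84 (adjusted P = 0.0314). Of the 15 genes, 12 were higher in cortex without mice 8 and 9 and 5 without mice 7 and 10.

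The deep-layer list split. Of 16 genes, 7 were higher in cortex, 4 higher in hippocampus and 5 not called (median -0.27). Thus 68.75% were called beside 32.4% over all genes. Cplx3, a complexin of subplate neurons, was at 0.834, 1.75, 2.36, 5.72 and 1.5 CPM in the hippocampus of mice 6 to 10 and at 41.9, 38.5, 21.8, 32.1 and 45.9 CPM in their cortex. It was nearly absent from the hippocampus of mouse 6 and highest in that of mouse 9 (-3.94 ± 0.45, adjusted P = 0.00297). Tbr1, the T-box factor of layer 6, was at 61.3, 57.4, 65.5, 61.2 and 33.6 CPM against 114, 123, 95.4, 117 and 115 CPM. The regions did not overlap (-1.03 ± 0.17, adjusted P = 0.00729). Ntsr1 and Sox5, a neurotensin receptor of layer 6 and a factor of corticofugal neurons, were also higher in cortex (-1.44 ± 0.14 and -0.66 ± 0.08). In the other direction, Bcl11b (Ctip2), which marks layer 5 and also granule and CA1 neurons, was at 181, 144, 187, 232 and 105 CPM in hippocampus against 86.8, 79.8, 95.3, 118 and 79.6 CPM in cortex. The values of mouse 10 hippocampus overlapped the cortex of mouse 9, and within each mouse the hippocampus was higher (0.86 ± 0.10, adjusted P = 0.00161). Crym, a thyroid hormone binding protein of layer 5 and of hippocampal pyramidal cells, was at 1170.2, 856, 1027, 617 and 549.6 CPM in hippocampus against the 70.1 to 396 CPM of cortex (2.45 ± 0.56, adjusted P = 0.0247). Etv1, an ETS factor, and Hs3st4, a heparan sulfate enzyme, were higher in hippocampus by 0.31 ± 0.07 and 0.19 ± 0.06. Foxp2, a forkhead factor of layer 6 and of thalamus and striatum, ran from 1.73 to 85.1 CPM in hippocampus against 16.1 to 25.9 CPM in cortex and was not called. Its highest hippocampi were those of mice 10, 7 and 9. Nr4a2, a factor of the subplate and claustrum, was also not called, with its highest values, 154 and 145 CPM, in the cortex of mice 8 and 9 and the rest of the cortices at 33.9 to 46.3 CPM. It was called higher in hippocampus without mice 8 and 9, by 0.65 (adjusted P = 0.0179), against 0.03 with all mice. Without mice 8 and 9, 9 genes were higher in cortex and 3 in hippocampus, and without mice 7 and 10, 3 and 2 were. With 1 mouse left out at a time, the call was lost for Crym without mouse 6, 7 or 10 (adjusted P up to 0.0744) and Hs3st4 without mouse 6, 7, 8 or 10 (adjusted P up to 0.12). In fits of all 5 pairs, no call was made for Crym without the count filter, Etv1 without the block or with all 20 libraries in 1 fit and Hs3st4 without the block, in DESeq2 or without the count filter.

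**Figure D3:**
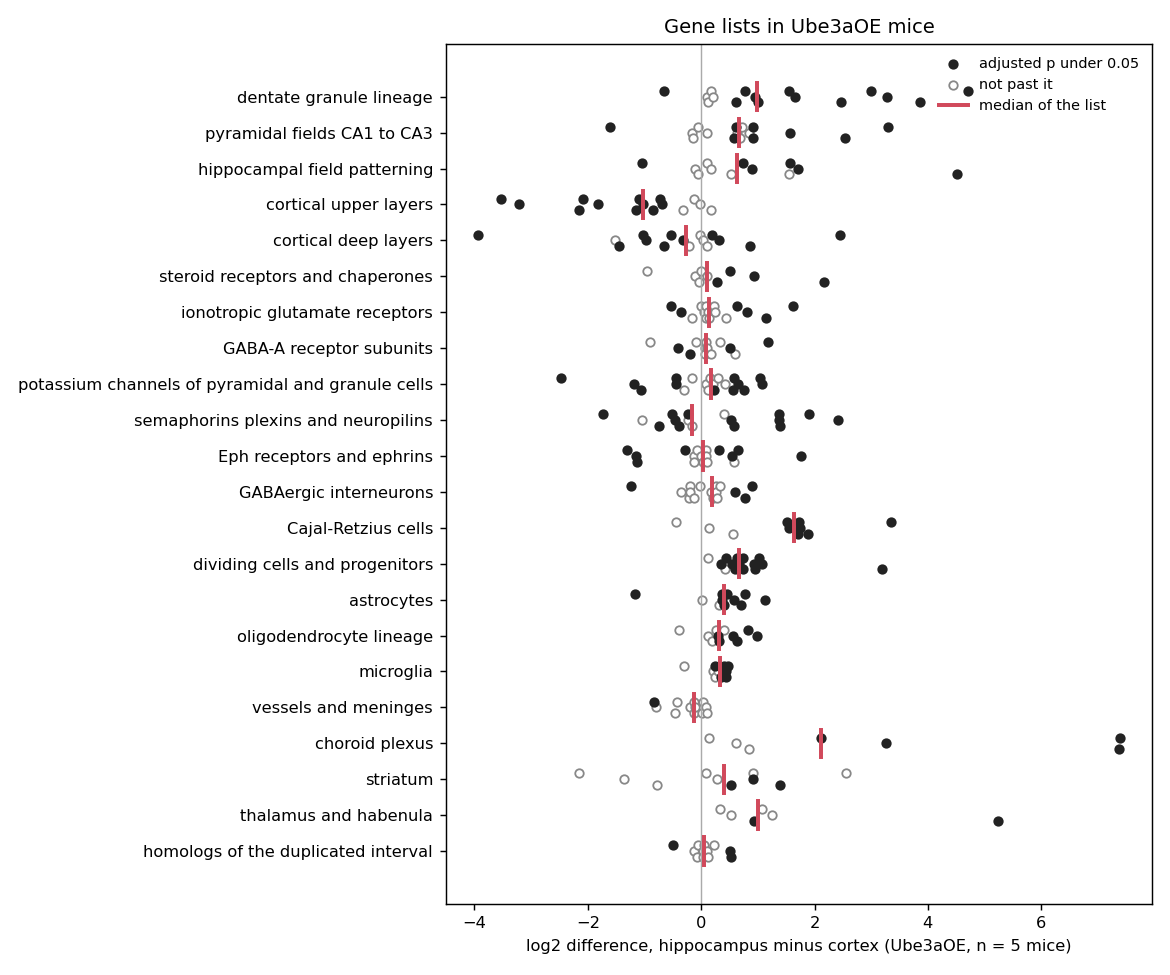
Log2 difference, hippocampus minus cortex, of each tested gene (points) of 22 lists in Ube3aOE mice, filled where the adjusted P was under 0.05; red ticks are list medians. The medians run from -1.03 for cortical upper layers to 0.98 for the dentate granule lineage and 1.63 for Cajal-Retzius cells, and choroid plexus (2.11) rests on 7 genes.

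Receptor and channel families held genes called in both directions. Among ionotropic glutamate receptors, 4 of 16 tested were higher in hippocampus, 2 higher in cortex and 10 not called (median 0.13). The share called, 37.5%, was near the 32.4% over all genes. Gria1, the AMPA receptor subunit GluA1, was at 700.3, 471, 641, 529.9 and 482 CPM in the hippocampus of mice 6 to 10 and at 207, 197, 339.7, 321 and 241 CPM in their cortex. No library overlapped, and the cortices of mice 8 and 9 were the highest (1.14 ± 0.15, adjusted P = 0.00343). The kainate receptor subunits diverged: Grik2 was higher in hippocampus (0.82 ± 0.13) and Grik3 higher in cortex (-0.36 ± 0.11, adjusted P = 0.044), where the hippocampus of mouse 6 was lowest at 78.6 CPM. Of the NMDA receptor subunits, Grin3a (0.63 ± 0.12) and the scarce Grin2c (1.62 ± 0.38) were higher in hippocampus and Grin2b higher in cortex (-0.53 ± 0.12, adjusted P = 0.0184). In the family 5 genes were higher in hippocampus and 0 in cortex without mice 8 and 9, and without mice 7 and 10, 1 and 0 were. When single mice were left out, calls were lost for Grik3 without mouse 7, 8 or 9 (adjusted P up to 0.107), Grin2c without mouse 6 or 7 (adjusted P up to 0.0666) and Grin2b without mouse 7 or 9 (adjusted P up to 0.0591). With 5 pairs and another setting, the call was lost for Grik3 without the block, without the count filter, with all 20 libraries in 1 fit or with upper quartile scaling and Grin2b with all 20 libraries in 1 fit.

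Among 13 tested GABA-A receptor subunits, 2 were higher in hippocampus, 2 higher in cortex and 9 not called (median 0.08). The share called, 30.8%, was near that over all genes (32.4%). Gabra2, an alpha subunit of synaptic receptors, was at 59.5, 48.7, 56.5, 51.5 and 59.4 CPM against 18.3, 17.3, 37.8, 32.7 and 20.7 CPM, without overlap (1.19 ± 0.20, adjusted P = 0.00812). Gabra5, the alpha subunit of extrasynaptic receptors on pyramidal cells, was at 298, 256, 317, 271 and 211 CPM against 170.2, 163, 222, 222 and 180.2 CPM. In each mouse the hippocampus was higher, though the hippocampus of mouse 10 lay below the cortices of mice 8 and 9 (0.51 ± 0.09, adjusted P = 0.0059). Gabra3, an alpha subunit common in the young brain, was higher in cortex (-0.41 ± 0.12, adjusted P = 0.035), as was Gabrb2 (-0.19 ± 0.06, adjusted P = 0.0441). Of the subunits, 2 were higher in hippocampus and 4 in cortex without mice 8 and 9, and without mice 7 and 10, 1 and 0 were. The call did not hold with 4 pairs for Gabra3 without mouse 7, 8 or 10 (adjusted P up to 0.093) and Gabrb2 without mouse 6, 7, 9 or 10 (adjusted P up to 0.124). With all mice kept, the call was also lost for Gabra3 without the block or without the count filter and Gabrb2 without the block, in DESeq2 or with all 20 libraries in 1 fit.

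Of 20 potassium channel genes, 7 were higher in hippocampus, 5 higher in cortex and 8 not called (median 0.18). In all, 60% were called beside 32.4% over all genes. Kcnd2, which encodes the dendritic A-type channel Kv4.2, was at 189, 171, 182, 173 and 211 CPM in the hippocampus of mice 6 to 10 and at 81.9, 77.9, 100.5, 100.2 and 85.4 CPM in their cortex. Values were even across mice in both regions, with no overlap (1.07 ± 0.08, adjusted P = 0.000656). Its relative Kcnd3 (Kv4.3) and the axonal subunit Kcna1 also were higher in hippocampus (0.76 ± 0.14 and 1.03 ± 0.20), as was Kcnn2, a calcium-activated channel (0.57 ± 0.07). Kcnh5, an ether-a-go-go channel, was at 1.13, 2.72, 3.37, 4.37 and 3.78 CPM against 21.7, 21.2, 5.97, 14 and 29.1 CPM and higher in cortex (-2.48 ± 0.46, adjusted P = 0.0116), with mouse 8 cortex closest to the hippocampal values. Kcnf1, a modulatory subunit without current of its own, and Kcnh7 were higher in cortex without overlap (-1.19 ± 0.15 and -1.06 ± 0.14). Of the channels, 8 were higher in hippocampus and 6 in cortex without mice 8 and 9, and without mice 7 and 10, 4 and 1 were.

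Axon guidance genes were called in both directions. Semaphorins, plexins and neuropilins gave 7 of 17 higher in hippocampus, 6 higher in cortex and 4 not called (median -0.16). Of these 17, 76.5% were called beside 32.4% over all genes. Nrp2, the neuropilin that binds class 3F semaphorins, was at 272, 199, 232, 199.5 and 165 CPM in the hippocampus of mice 6 to 10 and at 18.6, 19.1, 126, 115 and 16.3 CPM in their cortex. The cortices of mice 8 and 9 lay between the other cortices and the hippocampi (2.41 ± 0.62, adjusted P = 0.0347). Nrp1, the receptor of Sema3a, differed by 1.90 ± 0.34 (adjusted P = 0.0104) with the same 2 cortices highest. The ligands Sema3e (1.37 ± 0.11, adjusted P = 0.000722), Sema3c (1.38 ± 0.18) and Sema5a (1.37 ± 0.17) were higher in hippocampus without overlap. Sema3a was at 6.73, 8.63, 9.1, 39.2 and 7.79 CPM against 38.7, 39.4, 33, 36.9 and 41.1 CPM and higher in cortex (-1.73 ± 0.42, adjusted P = 0.0251). Only the hippocampus of mouse 9 reached the cortical level. Of 17 Eph receptors and ephrins, 4 were higher in hippocampus, 4 higher in cortex and 9 not called (median 0.04). The share called was 47.1%, against 32.4% over all genes. The receptors Epha6 (1.76 ± 0.33, adjusted P = 0.0116), Epha4 (0.54 ± 0.10) and Epha7 (0.64 ± 0.16) were higher in hippocampus, and the ligands Efnb2 (-1.31 ± 0.20, adjusted P = 0.006) and Efna5 (-1.13 ± 0.31, adjusted P = 0.0389) and the receptor Ephb6 (-1.15 ± 0.20) higher in cortex. Efna5 was lowest in the hippocampus of mouse 6 and highest in that of mouse 10 (6.32, 17.2, 11.7, 15.8 and 28.8 CPM for mice 6 to 10). The semaphorin list had 8 genes higher in hippocampus and 5 in cortex without mice 8 and 9, and the Eph list 6 and 4. Without mice 7 and 10 the semaphorin list had 3 and 1, and the Eph list 0 and 1. With 1 mouse left out at a time, the call was lost for Nrp2 without mouse 6, 7 or 10 (adjusted P up to 0.0994), Sema3a without mouse 6, 7, 8 or 10 (adjusted P up to 0.0869), Epha7 without mouse 6, 7, 8 or 10 (adjusted P up to 0.0858) and Efna5 without mouse 7, 8, 9 or 10 (adjusted P up to 0.0917). In fits of all 5 pairs, no call was made for Nrp2, Sema3a and Efna5 without the block or without the count filter and Epha6 and Epha7 without the count filter.

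Among steroid hormone receptors and their partners, Nr3c2 had the largest called difference. Nr3c2, the mineralocorticoid receptor, was at 146, 108, 137, 79 and 76.4 CPM in the hippocampus of mice 6 to 10 and at 17.2, 19.2, 25.1, 38.7 and 22.7 CPM in their cortex. All hippocampi exceeded all cortices, by 2.16 ± 0.30 (adjusted P = 0.00502), a 4.48-fold excess. Fkbp5, a co-chaperone of steroid receptors, was also higher in hippocampus (0.28 ± 0.07), as was Hsd11b1, which regenerates active glucocorticoid (0.51 ± 0.14). The list had 4 of 9 tested genes higher in hippocampus, 0 higher in cortex and 5 not called, with a median of 0.10. The share called was 44.4%, against 32.4% over all genes. The list had 5 higher in hippocampus and 1 in cortex without mice 8 and 9 and 0 in either without mice 7 and 10. When single mice were left out, calls were lost for Fkbp5 without mouse 7 (adjusted P = 0.0814) and Hsd11b1 without mouse 6, 7 or 10 (adjusted P up to 0.105).

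Cajal-Retzius genes had the largest median of the cell type lists that belong to these regions, 1.63. Of 10 genes, 7 were higher in hippocampus and 0 higher in cortex (70% called beside 32.4% over all genes). Cajal-Retzius cells populate the marginal zone and persist along the hippocampal fissure. Trp73, a p53 relative that marks the cells of hem origin, was at 14.6, 12.1, 12.2, 9.39 and 8.75 CPM in the hippocampus of mice 6 to 10 and at 2.54, 2.78, 6.44, 4.64 and 1.65 CPM in their cortex. The regions did not overlap (1.74 ± 0.28, adjusted P = 0.00571). Nhlh2, a helix-loop-helix factor also used in the habenula, was at 14.2, 15.4, 15.2, 5.15 and 27.6 CPM against 0.318, 0.776, 2.86, 2.87 and 0.506 CPM, highest in the hippocampus of mouse 10 (3.35 ± 0.72, adjusted P = 0.0176). Calb2 (calretinin), also present in interneurons and thalamic neurons, was at 100.3, 139, 103, 114 and 281 CPM against 21.5, 24, 80.4, 65.9 and 23 CPM. It was again highest in the hippocampus of mouse 10 and nearest between the regions in mice 8 and 9 (1.88 ± 0.54, adjusted P = 0.0472). Reln, the secreted protein that Cajal-Retzius cells and later interneurons release, was not called (-0.44 ± 0.23, adjusted P = 0.201). The list had 6 genes higher in hippocampus without mice 8 and 9 and 0 without mice 7 and 10, where the median was 1.14. The call did not hold with 4 pairs for Nhlh2 without mouse 6, 7 or 10 (adjusted P up to 0.057) and Calb2 without mouse 6, 7, 9 or 10 (adjusted P up to 0.138). With all mice kept, the call was also lost for Nhlh2 and Calb2 without the count filter.

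Genes of dividing cells and progenitors were mostly higher in hippocampus, by a like amount in every mouse. Of 15 genes, 13 were higher in hippocampus and 0 higher in cortex (86.7% called beside 32.4% over all genes). The list median was 0.71, 0.65, 0.60, 0.60 and 0.75 in mice 6 to 10 (0.67 in the fit). Top2a, the topoisomerase of dividing cells, was at 33.1, 25.8, 26.5, 20.8 and 24.1 CPM in the hippocampus of mice 6 to 10 and at 15.1, 13.2, 14.7, 11.6 and 13 CPM in their cortex. No library overlapped (0.95 ± 0.07, adjusted P = 0.000656). Mki67 differed by 0.74 ± 0.11, the mitotic kinase Aurkb by 1.08 ± 0.14, the replication factor Mcm2 by 0.67 ± 0.07, and the stem cell factor Sox2 by 0.94 ± 0.12, each without overlap. Tfap2c, a factor of radial glia, was low, at 4.71, 4.23, 3.72, 2.83 and 3 CPM against 0.381, 0.129, 0.895, 0.671 and 0 CPM (3.19 ± 0.53, adjusted P = 0.00584). Pcna, the clamp of DNA replication, was not called. There were 12 higher in hippocampus without mice 8 and 9 and 9 without mice 7 and 10.

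Glial lists leaned towards hippocampus. Of 11 astrocyte genes, 8 were higher in hippocampus and 1 higher in cortex (median 0.40, 81.8% called beside 32.4% over all genes). Gfap, the astrocyte and radial glia filament, was at 319, 246, 314, 175 and 202 CPM against 83.3, 90.5, 159, 135 and 109.6 CPM, without overlap (1.13 ± 0.23, adjusted P = 0.0141). Gjb6, a connexin that meningeal cells also use, was higher in cortex (-1.16 ± 0.23, adjusted P = 0.00839) and highest in the cortex of mouse 8. The astrocyte list had 8 genes higher in hippocampus without mice 8 and 9 and 4 without mice 7 and 10. Of 11 tested oligodendrocyte lineage genes, 6 were higher in hippocampus and 0 higher in cortex (median 0.32, 54.5% called). Those higher in hippocampus included Olig2 (0.56 ± 0.08) and Sox10 (0.64 ± 0.10), factors of the lineage. Mbp, which encodes a myelin protein, overlapped between the regions and was not called. The median of this list was -0.21 in mouse 6 and 0.67 in mouse 9, and the number higher in hippocampus was 3 without mice 8 and 9 and 1 without mice 7 and 10. Of 10 microglial genes, 6 were higher in hippocampus and 0 in cortex (median 0.32, 60% called). Differences were 0.48 ± 0.07 for the fractalkine receptor Cx3cr1 and 0.44 ± 0.09 for the growth factor receptor Csf1r. The microglial count higher in hippocampus was 6 without mice 8 and 9 and 1 without mice 7 and 10. Vessel and meningeal genes gave 0 of 12 higher in hippocampus and 1 higher in cortex, so that 8.33% were called beside 32.4% over all genes. The called gene was Lum, a proteoglycan of fibroblasts (-0.84 ± 0.20, adjusted P = 0.0159), and the fibroblast genes were highest in the cortex of mouse 8. The call of Lum held neither without mice 8 and 9 nor without mice 7 and 10. With 1 mouse left out at a time, the call was lost for Lum without mouse 7 or 10 (adjusted P up to 0.0609). In fits of all 5 pairs, no call was made for Gfap without the count filter and Lum without the block.

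Of 16 tested interneuron genes, 3 were higher in hippocampus, 1 higher in cortex and 12 not called (median 0.19), so that 25.0% were called beside 32.4% over all genes. Gad2, a GABA-synthesizing enzyme, was at 76.7, 58, 84, 156 and 67.3 CPM in the hippocampus of mice 6 to 10 and at 35.1, 36.9, 62.6, 64.4 and 52.2 CPM in their cortex. Its highest value was in the hippocampus of mouse 9, the one with the striatal markers (0.78 ± 0.15, adjusted P = 0.0116). Gad1, the other such enzyme, followed the same order (0.60 ± 0.14). Cck, a peptide of basket cells and pyramidal cells, was higher in hippocampus (0.91 ± 0.15, adjusted P = 0.00619), and Vip, the peptide of disinhibitory interneurons, higher in cortex, at 5.72, 3.8, 6.26, 6.11 and 3.78 CPM against 13.9, 10.3, 9.67, 11 and 16.3 CPM (-1.24 ± 0.21, adjusted P = 0.00526). The median of the list was -0.12 without mice 8 and 9. Without mice 8 and 9, 3 genes were higher in hippocampus and 2 in cortex, and without mice 7 and 10, 0 and 1 were. When single mice were left out, calls were lost for Gad1 without mouse 6 or 7 (adjusted P up to 0.0633). With 5 pairs and another setting, the call was lost for Gad2 without the block and Gad1 without the block or without the count filter.

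Markers of neighbouring tissue moved with single libraries. Tcf7l2, a Wnt-linked factor of thalamic neurons, was at 4.77, 271, 46.2, 6.17 and 564 CPM in the hippocampus of mice 6 to 10 and at 2.1, 2.71, 2.57, 2.14 and 2.72 CPM in their cortex. It was called (5.23 ± 1.13, adjusted P = 0.0205) on values that differ 118-fold between hippocampi. Pou4f1, a habenular factor, reached 12.0 CPM in the hippocampus of mouse 10 and at most 0.0635 CPM in the other 9 libraries, and was too low to test. Of the thalamic and habenular list, 2 of 6 tested were higher in hippocampus (median 1.01, 33.3% called beside 32.4% over all genes). Of the choroid plexus list, 4 of 7 were (median 2.11, 57.1% called). Ttr, the transthyretin that the plexus secretes, was at 6.73, 1898, 0.473, 324 and 9.41 CPM in hippocampus and at up to 6.65 CPM in cortex. Of 10 tested striatal genes, 3 were higher in hippocampus and 0 in cortex (median 0.41, 30.0% called). Ppp1r1b (DARPP-32) was at 12.9, 12, 11.3, 218 and 9.83 CPM against 51.6, 38.4, 9.49, 64.6 and 45.1 CPM and was not called with all mice (-0.78). It was called higher in cortex without mice 8 and 9, by -1.95 (adjusted P = 0.000108). In the fit without mice 8 and 9 the striatal, choroid plexus and thalamic lists had 3, 4 and 2 genes higher in hippocampus and 2, 0 and 0 in cortex, and without mice 7 and 10, 0, 3 and 1 were higher in hippocampus. The call did not hold with 4 pairs for Tcf7l2 without mouse 7, 8 or 10 (adjusted P up to 0.0648). With all mice kept, the call was also lost for Tcf7l2 without the count filter.

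Mouse homologs of the genes in the human chromosome 15 interval whose duplication includes UBE3A showed small differences. Of 12 genes, 2 were higher in hippocampus, 1 higher in cortex and 9, Ube3a among them, not called (median 0.05). The share called was 25.0%, against 32.4% over all genes. Herc2, a large ubiquitin ligase, was at 144, 114, 131, 129 and 119 CPM in the hippocampus of mice 6 to 10 and at 175, 164, 181, 199 and 188 CPM in their cortex. Every cortex was above every hippocampus (-0.50 ± 0.06, adjusted P = 0.00185). Cyfip1, which links translation to actin, was at 106, 78.4, 97.5, 74.4 and 82.5 CPM against 59.4, 52.7, 63.5, 64 and 68.3 CPM, higher in hippocampus without overlap (0.51 ± 0.10, adjusted P = 0.00752). Magel2, an imprinted ligase regulator, was at 8.4, 15.3, 10.7, 19 and 20.0 CPM against 8.13, 8.6, 11.3, 11.17 and 10.6 CPM. The regions overlapped, and the call was close to the threshold (0.52 ± 0.17, adjusted P = 0.0489). In WT mice Magel2 differed by -0.22; the difference between the genotypes had an adjusted P of 0.797. The list had 3 genes higher in hippocampus without mice 8 and 9 and 0 without mice 7 and 10. With 1 mouse left out at a time, the call was lost for Magel2 without mouse 7, 9 or 10 (adjusted P up to 0.16). In fits of all 5 pairs, no call was made for Magel2 without the block, with DESeq2's size factors, without the count filter or with upper quartile scaling.

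Outside the lists, the genes of the largest called difference in hippocampus, at a mean of at least 5 CPM and higher in 5 of 5 mice, were Rasd1 (3.72), Nts (3.23), Il16 (3.20), Car12 (3.14), Cabp7 (3.01) and St18 (2.81), besides listed genes. Nts, the neuropeptide neurotensin, was at 76.4, 95.9, 101, 82.2 and 43.3 CPM in the hippocampus of mice 6 to 10 and at 3.87, 1.16, 25.5, 29.4 and 2.15 CPM in their cortex. Among the cortices, those of mice 8 and 9 were the highest. Cabp7, a neuronal calcium sensor, was at 64.5, 41.5, 45.2, 20.5 and 38.7 CPM against 2.22, 2.84, 9.97, 9.15 and 2.85 CPM, again with these cortices highest (adjusted P = 0.0114). In cortex the list was led by A830009L08Rik (-5.08), an uncharacterised transcript, Trpa1, an ion channel of the TRP family (-4.65), Hspb3, a small heat shock protein (-4.23), and Tshr, the thyrotropin receptor (-2.97). Trpa1 was at 0.238, 0.241, 0.532, 1.93 and 0.539 CPM against 25.7, 16, 9.55, 10.6 and 28.2 CPM. The hippocampus of mouse 9 was highest of its group and the cortices of mice 8 and 9 lowest of theirs. By smallest P, B3galt5, a galactosyltransferase, led in hippocampus, at 32.5, 24, 27.4, 35.4 and 25.1 CPM against 6.54, 5.75, 7.64, 10.1 and 7.47 CPM (1.96 ± 0.10, adjusted P = 0.000301). Arhgap29, a GTPase-activating protein, led in cortex, at 16.7, 17.9, 16.1, 17.8 and 17.6 CPM against 42.2, 54.2, 38.5, 40.8 and 52.6 CPM (-1.39 ± 0.08, adjusted P = 0.000301). Neither gene overlapped between the regions, and their values varied little between mice. Crhr1, the receptor of corticotropin-releasing hormone, belonged to the same group in cortex (-1.28 ± 0.10, adjusted P = 0.000663). When single mice were left out, calls were lost for Rasd1 without mouse 6 (adjusted P = 0.0549), Nts without mouse 6 or 10 (adjusted P up to 0.0763) and St18 without mouse 6 (adjusted P = 0.0515). With 5 pairs and another setting, the call was lost for Rasd1, Nts, Cabp7 and St18 without the count filter.

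The regional programs of Ube3aOE mice were set beside those of WT mice, which share no library with them. In WT mice 6496 of 15088 genes (43.1%) differed between the regions, 3457 (22.9%) higher in hippocampus and 3039 (20.1%) higher in cortex, and past 1, 686 (4.55%) and 402 (2.66%). Of the 675 of these hippocampal genes tested in Ube3aOE mice, 673 had the same direction there, 568 (84.1%) were called and 0 were called the other way. Of the 384 cortical genes tested, 379 had the same direction, 298 (77.6%) were called and 0 were called the other way. Conversely, of the genes called past 1 in Ube3aOE mice and tested in WT mice, 481 of 520 higher in hippocampus (92.5%) and 241 of 257 higher in cortex (93.8%) were called in the same direction in WT mice. Calls depend on the spread left after region and mouse were fitted. This spread was 9.25% in WT mice and 12.1% in Ube3aOE mice (biological coefficient of variation). Its part in the lower number of calls in Ube3aOE mice was not tested. Across 14952 genes tested in both genotypes the differences correlated at r = 0.897, a description over genes, which are not independent, with a slope of 0.78 of Ube3aOE on WT. The WT differences are themselves estimates, and their error lowers such a slope.

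Read mouse by mouse, the 675 hippocampal genes chosen in WT mice had a median difference of 1.5, 1.53, 0.86, 0.73 and 1.45 in Ube3aOE mice 6 to 10. The WT mice in which they were chosen had 1.52, 1.13, 1.41, 1.69 and 1.5 (mice 1 to 5), values that the choice itself raises. Mice 8 and 9, those with some hippocampal markers raised in the cortex library, were below all WT mice, and mice 6, 7 and 10 were within their range. The 384 cortical genes had medians of -1.56, -1.29, -0.999, -0.71 and -1.24 in mice 6 to 10, against -1.55, -0.94, -1.54, -1.49 and -1.61 in WT mice. Here mouse 9 was the nearest to 0 and WT mouse 2, whose hippocampus held 1923 CPM of upper-layer genes against 1094 to 1188 CPM in the other WT hippocampi, came next. Taken for each mouse alone, and with the same limit, the slope over all genes on the WT difference was 0.97, 0.93, 0.58, 0.45 and 0.88 in mice 6 to 10.

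**Figure D4:**
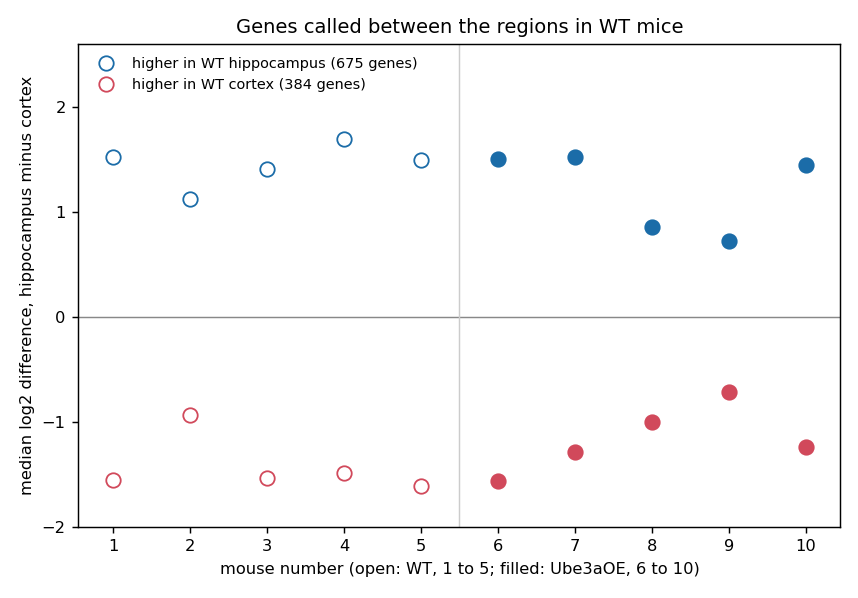
Median log2 difference, hippocampus minus cortex, over 675 genes higher in WT hippocampus and 384 higher in WT cortex, for each WT (open) and Ube3aOE (filled) mouse. All 10 mice keep the sign of both gene groups, and mice 8 and 9 are nearest to 0 for the hippocampal genes (0.86 and 0.73).

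The test of the difference itself, an interaction of region and genotype over all 20 libraries with edgeR, called 0 of 15661 genes (0 also with DESeq2), with a smallest adjusted P of 0.797. At an unadjusted P under 0.05 there were 944 genes (6.03%). The 95% interval of the interaction lay within -0.5 to 0.5 for 60.1% of genes and within -1 to 1 for 82.5%, and for the other genes larger shifts lay within the interval. For the markers, the interaction (Ube3aOE minus WT) was -0.43 (95% interval -1.40 to 0.54) for Prox1, -0.34 (-0.63 to -0.05) for Grik4, -0.74 (-1.46 to -0.01) for Zbtb20, 0.51 (-0.17 to 1.19) for Rorb and 0.23 (-1.24 to 1.70) for Mef2c. The intervals of Zbtb20 and Grik4 lay below 0 before adjustment, and both had an adjusted P of 0.797 or above. The 5 smallest P values of the interaction belonged to Tomm7, Ptpru, Ypel3, Lin7a and Pld5. Tomm7, a subunit of the mitochondrial import pore, differed by -0.23 ± 0.05 in Ube3aOE mice and 0.12 in WT mice. Ptpru, a receptor tyrosine phosphatase, differed by 0.36 ± 0.05 and 0.03, and Lin7a, a scaffold of synaptic junctions, by 0.67 ± 0.05 and 0.39. None of these passed the adjustment (adjusted P = 0.797 for each). Of the listed genes, 0 were called in the interaction. By list, the counts in WT mice were 12 higher in hippocampus and 2 in cortex of 16 for the dentate lineage, 0 and 11 of 15 for upper layers, and 14 and 0 of 15 for dividing cells, beside 11 and 1, 0 and 11, and 13 and 0 in Ube3aOE mice. Such counts also depend on the spread, which was wider in Ube3aOE mice, as given above. Other lists had counts less alike. In WT mice they were 11 and 2 of 16 for pyramidal fields, 7 and 1 of 12 for field patterning, 8 and 5 of 17 for Eph receptors and ephrins, 6 and 3 of 16 for interneurons, 3 and 3 of 9 for striatum and 2 and 0 of 12 for vessels and meninges, beside 7 and 1, 5 and 1, 4 and 4, 3 and 1, 3 and 0, and 0 and 1 in Ube3aOE mice. The interaction had an unadjusted P under 0.05 for 4 of 14 field patterning genes (list median -0.42) and 3 of 8 choroid plexus genes (list median 1.35), beside 6.03% over all genes.

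**Figure D5:**
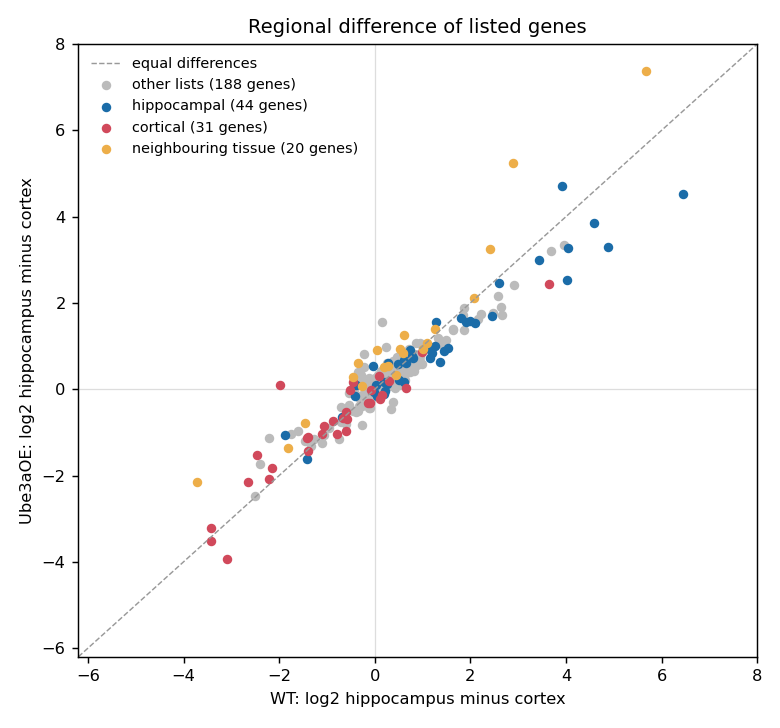
Log2 difference, hippocampus minus cortex, of the listed genes in WT mice (horizontal) and Ube3aOE mice (vertical), n = 5 mice each; the dashed line marks equal differences. Most hippocampal list genes lie above 0 and most upper-layer genes below 0 in both genotypes, with exceptions such as Mpped1 (-1.61 in Ube3aOE). The deep-layer list gene Crym lies above 0 (2.45 in Ube3aOE). Markers of neighbouring tissue such as Tcf7l2 (5.23 in Ube3aOE, 2.89 in WT) lie above the dashed line.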

How the data were processed

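Hippocampus and cortex were dissected from 5 WT and 5 Ube3aOE pups at P7, and RNA was made into 1 stranded mRNA library per region and mouse. Per the labels, HISAT2 2.1.0, HTSeq 0.11.2 and the build GRCm38 (mm10) were used. The authors deposited raw counts of reads per gene for 47729 genes; strand settings and annotation release are not given in the sources used here. Lines of reads not assigned to a gene (18.8% to 24.0% of a Ube3aOE library) were left out. Group, region and mouse number came from the labels, where the number gives the animal. After the group means were removed, the libraries of 1 Ube3aOE mouse correlated across genes at 0.157 to 0.240 (5 pairs), and a hippocampus with the cortex of another mouse at -0.118 to 0.0424 (20 pairs).

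Counts were fitted in R 4.3.3 with edgeR 4.0.16 (TMM, filterByExpr, robust quasi-likelihood test) with region and mouse as terms. The interaction with genotype used all 20 libraries. Standard errors and 95% intervals come from the test statistic. Where nothing says that mice came from separate litters, P values measure the spread between these mice. The alternatives were DESeq2 1.42.0, limma 3.58.1, other scalings, no filter, no replicate block, all libraries together and each mouse left out. Positions are from GENCODE M21 and promoter windows from RefSeq.

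The members, the 22 gene lists (303 genes, 287 tested) and the tests were chosen with earlier results of these data known. Genes are named if they are Ube3a, a region marker, a list member, among the 12 called genes past 1 per direction with the largest difference (mean of at least 5 CPM, 1 direction in all mice) or the smallest P, or among the 5 smallest interaction P values. Some listed genes are counted with their lists and are not reported by name here.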

Additional observations from a re-analysis of the deposited data

Results flagged for a closer look

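Depth, Ube3a, the 5 region markers and the 22 list sums were searched in the hippocampus and the cortex group of Ube3aOE mice for a library far from the other 4 (Dixon's test), 58 searches in all. Chance flags about 1 in 20 such groups, and 5 were found, all in hippocampus. Zbtb20 was at 201 CPM in the hippocampus of mouse 8, with the next at 109 CPM. Mef2c was at 335 CPM in the hippocampus of mouse 9, with the next at 168 CPM, and the same library held 983 CPM of striatal markers, with the next at 216 CPM. Choroid plexus markers summed to 1978 CPM in the hippocampus of mouse 7, with the next at 359 CPM. Eph receptors and ephrins summed to 2050.4 CPM in the hippocampus of mouse 6, with the next at 1752 CPM.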

How the results depend on the processing

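The number of genes that differed between the regions of Ube3aOE mice (4914, of which 819 past 1) was 4075 (829 past 1) without the replicate block, of which 3920 were shared, and 3699 to 6020 over the other settings that keep all mice (821 to 996 past 1). With each mouse left out it was 2793 to 4279 (626 to 927 past 1). It was 1069 (285 past 1) without mice 7 and 10, and 2589 without mice 7, 9 and 10 with the WT libraries in the fit. In WT mice (6496, 1088 past 1) it was 5735 without the replicate block, and 4908 to 7448 (1026 to 1324 past 1) with each mouse left out. The interaction had 0 calls in every setting run, without the replicate block and with each mouse left out (0 to 0) included. Of 110 called genes named, 82 were called with each mouse left out and 80 in every setting that keeps all mice. Without the replicate block, Nr4a2 turned to -0.23 and Ppp1r1b to 0.34; Foxp2 was -0.034 in DESeq2 and Nr4a2 -0.016 in limma voom. Without single mice Foxp2 ranged from -0.40 to 0.72, below 0 without mouse 7, 9 or 10, Kitl from -0.29 to 0.51, below 0 without mouse 7 or 10, and Nr4a2 from -0.22 to 0.33, below 0 without mouse 6, 7 or 10. Without mice 7 and 10, Foxp2 was -0.91, Kitl -0.84, Nr4a2 -0.27 and Ppp1r1b 0.11. Without mice 7, 9 and 10, Foxp2 was -2.004, Kitl -0.86, Magel2 -0.013 and Mbp -0.19. Of these turned values, that of Kitl without mice 7 and 10 was called (adjusted P = 0.0314). Without mice 8 and 9, Nr4a2 (0.65, adjusted P = 0.0179) and Ppp1r1b (-1.95, adjusted P = 0.000108) were called, each in the direction it had with all mice, as were Pou3f3 without mouse 8, without mice 8 and 9 and in DESeq2 (-0.43, -0.55 and -0.32), Reln without mouse 6 (-0.69), Sox11 without mouse 7 and without mice 7 and 10 (0.26 and 0.31) and Neurod2 without mice 7, 9 and 10 (0.69). The cause of the turns was not tested. Depth limits the scarce genes: Lmx1a, Wnt3a, Wnt8b and Pou4f1 were too low to test.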
